A study of Homo sapiens with 16 samples.

Results

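A set of 41 autophagy and lysosome genes was followed in U2OS cells that carried unedited or edited MDM2, with and without the pyrimidine analog 5-fluorouracil (5-FU). The genes were chosen by name: 3 that link p53 to autophagy, and others that build the autophagosome or the lysosome, in 9 groups by role. All 41 were found among the 28692 genes joined over both experiments, and all 41 passed the filter on low counts in both kinds of fit. U2OS derives from a human osteosarcoma and has kept p53 unmutated. The 2 genotypes were unedited (WT) and MDM2 W329G, introduced by CRISPR/Cas9, with 2 lines of each, called cells 1 and cells 2. Treatment lasted 24 h, with the solvent DMSO alone or with 50 µM 5-FU, and was done in 2 experiments sequenced by different vendors. This gave 16 poly-A RNA-seq libraries in 4 groups of 4: WT with DMSO, WT with 5-FU, W329G with DMSO and W329G with 5-FU. In every group, experiment 1 supplied replicates 1 (cells 1) and 2 (cells 2), and experiment 2 supplied replicates 3 (cells 1) and 4 (cells 2). Values below are CPM (counts per 1000000 counts of a library) and are listed in the order of replicates 1 to 4. The labels do not say whether a line is a single clone.

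Autophagy encloses cytoplasm in a double membrane, the autophagosome, which then fuses with the lysosome, where acid hydrolases digest the contents. The ULK kinase complex starts the process, the class III PI3-kinase complex marks the growing membrane with a phosphoinositide, WIPI and ATG2 proteins bring in lipid, and a conjugation system attaches ATG8-family proteins to the membrane. Genes of both compartments are under the control of the MiT transcription factors (TFEB, TFE3 and MITF), which bind the E-box CACGTG, and p53, which MDM2 ubiquitinates, has autophagy genes such as DRAM1 and TP53INP1 among its known targets.

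Library totals ran from 24715999 to 56877328 counts, and mitochondrially encoded genes took from 7.14% (W329G DMSO replicate 1) to 31.8% (WT 5-FU replicate 1) of the counts. The mesenchymal genes VIM, COL1A1, SPARC, COL5A1 and THY1 were at 140.4 CPM or more in each library. Of the same list of mesenchymal and osteoblast genes, RUNX2 was at 21.6 to 75.8 CPM, whereas ALPL and COL1A2 were at most at 9.02 CPM. Of the markers of other cell types, 6 blood genes summed to at most 1.82 CPM in any library. The 6 epithelial genes summed to between 42.3 and 473 CPM, most of it KRT8 (31.3 to 406 CPM), with CDH1 at 9.74 CPM or less. The 6 neural genes summed to between 121 and 401 CPM, with NEFL up to 337, TUBB3 up to 194 and GFAP at most at 0.765 CPM. By group the epithelial sums were 143 to 413 CPM in WT with DMSO, 176 to 473 in WT with 5-FU, 45.2 to 461 in W329G with DMSO and 42.3 to 440.4 in W329G with 5-FU, and the neural sums were 121 to 244, 189.7 to 401, 181 to 278 and 222 to 294. These ranges overlapped between the groups, and their part in the results was not tested. MDM2 itself, whose count does not show the edited codon, averaged 60.9 ± 18.4 CPM (SD, n = 4) in WT with DMSO, 229 ± 42.5 in WT with 5-FU, 72.8 ± 31.8 in W329G with DMSO and 75.2 ± 19.4 in W329G with 5-FU. The line numbers did not carry over between the experiments. Across 11347 genes the difference between cells 1 and cells 2 in experiment 1 correlated negatively with that in experiment 2, with r of -0.238 and -0.418 in WT and of -0.646 and -0.73 in W329G, whereas within an experiment the DMSO and 5-FU libraries of a number deviated together (r from 0.685 to 0.815). Results that sum a line over both experiments are therefore given with the numbers as labelled and with the numbers exchanged in experiment 2. If the exchanged numbers are right, each sum as labelled mixes both lines of a genotype. The SE and adjusted p of the labelled sums can then understate the spread between lines.

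The 250 bases before the annotated start are shown for 3 lysosomal genes that hold the E-box and for 2 genes on which the comparisons below turn (RefSeq, GRCh38.p14, gene strand, 5′ to 3′). In LAMP1, NEU1 and MCOLN1 the capitals mark CACGTG, in GABARAPL1 they mark a match to the p53 half-site consensus, and DRAM1 held neither in this window.
LAMP1, chr13:113296989-113297238, plus strand: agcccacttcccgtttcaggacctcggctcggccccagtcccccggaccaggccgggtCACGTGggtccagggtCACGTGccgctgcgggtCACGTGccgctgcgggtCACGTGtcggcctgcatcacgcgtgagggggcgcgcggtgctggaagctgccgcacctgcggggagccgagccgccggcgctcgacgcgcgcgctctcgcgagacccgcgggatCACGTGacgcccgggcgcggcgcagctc
NEU1, chr6:31862822-31863071, minus strand: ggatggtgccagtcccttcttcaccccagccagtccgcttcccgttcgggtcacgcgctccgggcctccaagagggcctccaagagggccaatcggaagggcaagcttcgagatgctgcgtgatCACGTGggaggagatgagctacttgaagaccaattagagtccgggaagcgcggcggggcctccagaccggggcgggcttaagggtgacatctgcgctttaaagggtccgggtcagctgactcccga
MCOLN1, chr19:7522374-7522623, plus strand: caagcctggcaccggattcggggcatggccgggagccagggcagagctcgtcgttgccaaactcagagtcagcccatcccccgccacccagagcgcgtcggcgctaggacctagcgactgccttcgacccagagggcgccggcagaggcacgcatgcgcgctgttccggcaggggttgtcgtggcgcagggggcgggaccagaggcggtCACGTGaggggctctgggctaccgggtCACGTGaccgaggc
GABARAPL1, chr12:10212627-10212876, plus strand: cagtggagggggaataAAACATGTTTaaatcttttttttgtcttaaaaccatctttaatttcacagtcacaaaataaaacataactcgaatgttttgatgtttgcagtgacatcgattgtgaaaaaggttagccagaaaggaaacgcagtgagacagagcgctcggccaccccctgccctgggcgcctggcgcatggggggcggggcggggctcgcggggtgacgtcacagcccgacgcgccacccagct
DRAM1, chr12:101877330-101877579, plus strand: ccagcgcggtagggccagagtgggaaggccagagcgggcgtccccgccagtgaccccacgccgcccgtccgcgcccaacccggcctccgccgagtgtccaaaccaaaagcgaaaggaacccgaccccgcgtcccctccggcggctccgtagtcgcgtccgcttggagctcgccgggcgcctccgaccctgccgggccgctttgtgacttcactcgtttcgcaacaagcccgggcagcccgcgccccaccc

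The promoter table held 34 of the 41 genes, with windows of 250 bases before to 50 bases after the start. TP53INP1, UVRAG, ATG4D, MAP1LC3A, LAMP2, CTSB and HEXA had no window and were not searched. CACGTG, which reads the same on both strands, was found in 6 of these 34 genes (17.6%), against 8.77% of the 27305 genes in the table. The 6 were ATG14, ATG3, LAMP1, CTSD, NEU1 and MCOLN1, so that 4 of the 5 lysosomal genes with a window held it. LAMP1 had 6 copies, 5 of them within the stretch printed, and MCOLN1 had 2. The longer form TCACGTGA, which contains CACGTG, was found in 3 of the 34 (ATG3, LAMP1 and MCOLN1), against 1.18% of all genes. The p53 half-site consensus was matched in 2 of the 34, GABARAPL1 and NEU1 (5.88%, against 8.06% of all genes). These matches describe the letters in a window and are not binding sites.

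The 41 genes covered a wide range of levels. Per kilobase of exon in the 8 libraries of experiment 1, CTSB had the highest level, 121 ± 40.4 CPM per kb (mean ± SD over all 4 groups), followed by LAMP1 at 83.3 ± 19.7 and CTSL at 57.2 ± 9.55. The 5 highest were all lysosomal, with CTSD (37.6 ± 9.72) and LAMP2 (31.7 ± 2.46) next. The ranges of 1 SD overlapped between CTSB and LAMP1, between LAMP1 and CTSL and between CTSD and LAMP2. Among the ATG8 family, whose proteins are joined to the autophagosome membrane, the means over all 8 libraries were 21.98 ± 3.17 for GABARAP, 16.2 ± 1.45 for GABARAPL2, 13.9 ± 2.28 for MAP1LC3B and 9.002 ± 3.68 for GABARAPL1. The ranges of 1 SD of the last 2 overlapped. GABARAPL1 was at 5.97 ± 1.005 CPM per kb in the 4 WT libraries, below MAP1LC3B (14.6 ± 3.29), and at 12.03 ± 2.48 in the 4 W329G libraries, where its range of 9.27 to 14.6 overlapped that of MAP1LC3B (13.03 to 13.6). MAP1LC3A was lowest of all, with 9 to 23 reads per library in experiment 1 and 0 to 3 in experiment 2, so that no direction is read from it. In the middle of the order, TP53INP1 (4.84 ± 4.47) and DRAM1 (4.79 ± 3.24) had the largest SDs relative to their means.

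After 5-FU, 2 of the 41 genes rose in WT, DRAM1 and TP53INP1, and none fell. Of all 16436 genes tested, 3.56% were called higher and 5.21% lower (edgeR quasi-likelihood test without a term for pairs of libraries, adjusted p under 0.05). In W329G no member was called, against 0.195% of all genes higher and 0.59% lower. At an unadjusted p under 0.05 there were 6 members in W329G, beside 13.1% of all genes. DESeq2 called 2 members there, ATG2B and WIPI1, both lower, beside 2.09% of all genes lower and 1.39% higher. The difference between the responses, W329G minus WT, was called for DRAM1, TP53INP1 and WIPI1, all lower, where 0.511% of all genes were lower and 0.694% higher. The median log2 response of the 41 genes was 0.11 in WT and -0.05 in W329G, beside 0.01 and 0.02 for all genes tested. Fewer cells of a kind and less RNA per cell cannot be told apart in these bulk libraries.

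**Figure D1:**
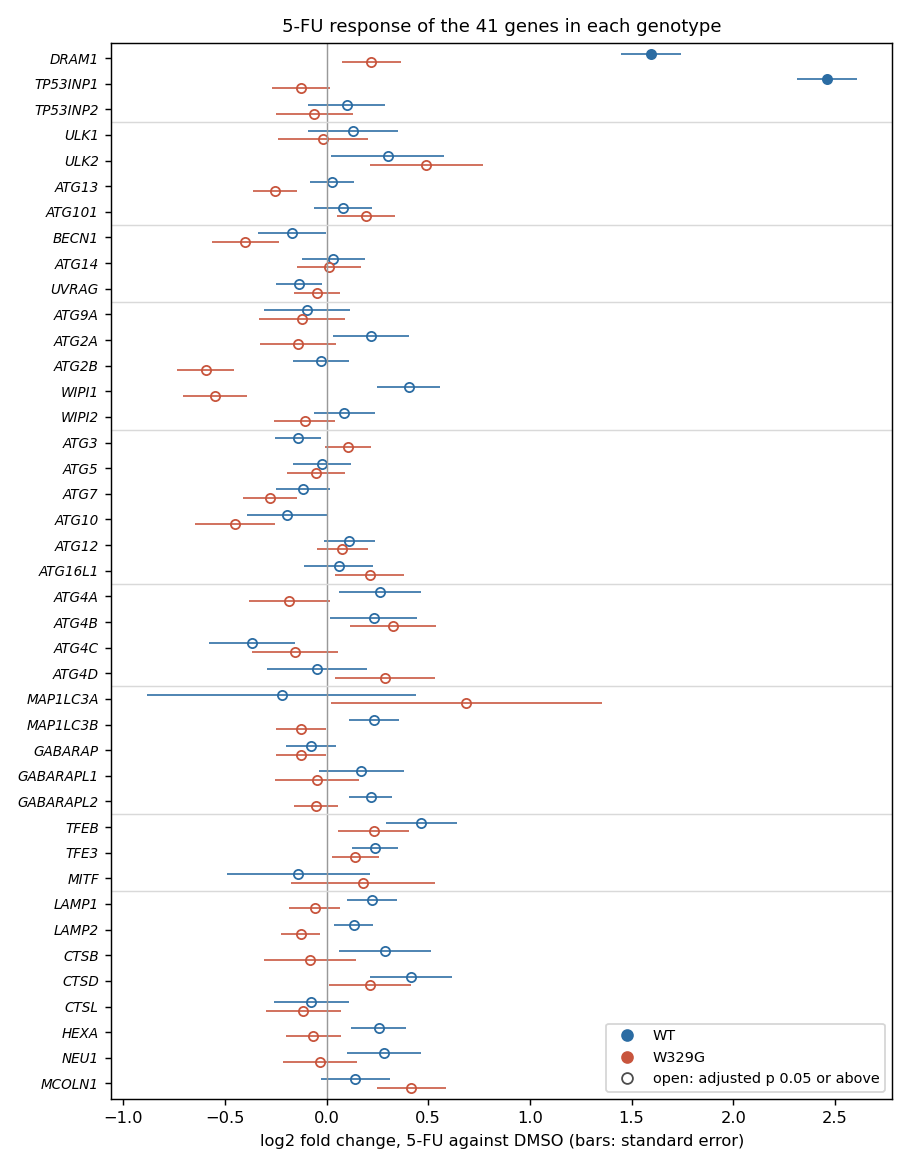
log2 fold change of 5-FU against DMSO for the 41 genes in WT (blue) and W329G (red), with standard errors, in the order of their roles (grey lines separate the groups). Filled points have an adjusted p under 0.05: only DRAM1 (1.60) and TP53INP1 (2.46) in WT are filled.

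Each DMSO library has a 5-FU partner of the same line and experiment. With a term for these pairs, more genes were called: in WT 11.6% of all genes higher and 13.1% lower, and 8 members, of which 7 were higher (DRAM1, TP53INP1, WIPI1, TFEB, TFE3, CTSD and NEU1) and ATG4C was lower. In W329G the pairs gave 5.13% of all genes higher and 5.79% lower, and 6 members: ATG4B and MCOLN1 higher, and BECN1, ATG2B, WIPI1 and ATG10 lower. For the difference they gave 3.57% higher and 2.54% lower, and 4 members, the 3 above and ATG2B, all lower. In WT, 16 of the 41 genes had a 5-FU to DMSO ratio above 1 in all 4 pairs, beside 20.2% of all genes, and 3 (BECN1, ATG7 and ATG4C) had one below 1 in all 4, beside 21.1%. In W329G, 5 had a ratio above 1 in all 4 pairs (16.7% of all genes) and 6 below 1 (16.9%). The 16 in WT included 4 of the 8 lysosomal genes, LAMP1, CTSD, HEXA and NEU1, none of which was on that list in W329G. MCOLN1 was the lysosomal gene on the W329G list and was not on the WT list.

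**Figure D2:**
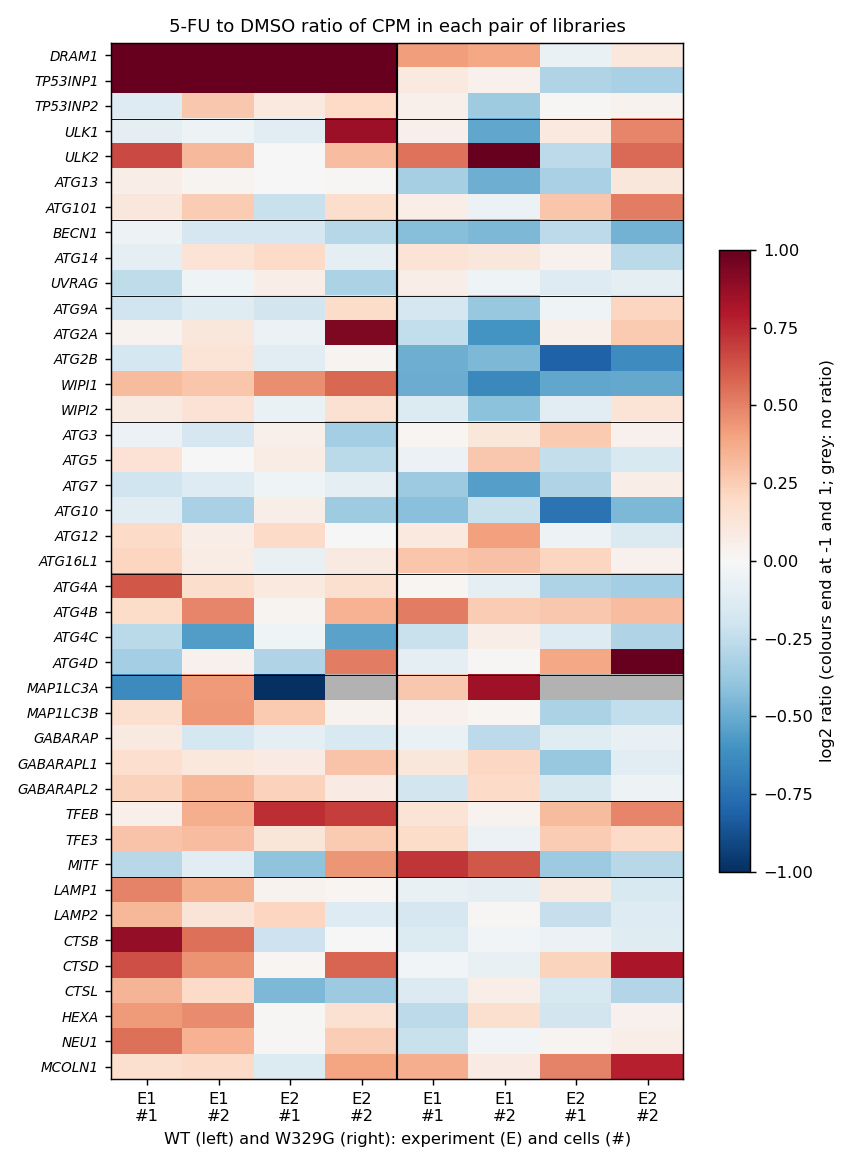
log2 of the 5-FU to DMSO ratio of CPM for each gene (rows, by role) in each pair of libraries of the same line and experiment (columns, E for experiment and # for cells), WT on the left and W329G on the right. DRAM1 and TP53INP1 are past the colour limit in all 4 WT pairs, and WIPI1 is above 0 in all 4 WT pairs and below 0 in all 4 W329G pairs.

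DRAM1 encodes a lysosomal membrane protein through which p53 promotes autophagy (GRCh38 coordinates, as for the genes that follow: ENSG00000136048, chromosome 12, 101877351 to 102012130, plus strand). Its level was 10.3, 12.4, 11.6 and 12.98 CPM in WT with DMSO and 40.9, 42.6, 33.3 and 28.9 in WT with 5-FU. In W329G it was 12.3, 11.1, 10.2 and 9.42 with DMSO and 16.4, 14.4, 9.79 and 10.1 with 5-FU. All 4 WT libraries with 5-FU lay above the other 12, and the 2 W329G groups overlapped. The WT response was 1.60 ± 0.15 on the log2 scale (SE; adjusted p = 1.19e-05), the W329G response 0.22 ± 0.15 (adjusted p = 0.565), and the difference -1.37 ± 0.21 (adjusted p = 0.00285). In experiment 1 alone the 2 responses were 1.88 and 0.40, and in experiment 2 alone 1.34 and 0.01. The 5-FU to DMSO ratio was larger in both WT pairs of experiment 1 (3.98 and 3.43) than in those of experiment 2 (2.87 and 2.23).

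TP53INP1 had the largest response of the 41 genes. It encodes a stress-induced protein that is found with p53 in the nucleus and binds ATG8-family proteins during autophagy (ENSG00000164938, chromosome 8, 94925972 to 94949411, minus strand). It was at 12.04, 12.7, 18.02 and 24.9 CPM in WT with DMSO and at 70.5, 66.4, 98.4 and 136 in WT with 5-FU. W329G libraries had it at 13.8, 14.5, 32.4 and 25.6 with DMSO and 14.8, 14.9, 26.4 and 20.5 with 5-FU. Again the 4 WT libraries with 5-FU stood above all others, and in each group both libraries of experiment 2 were above those of experiment 1. The ratio of 5-FU to DMSO was alike in the 4 WT pairs, 5.85, 5.24, 5.46 and 5.46 (5.50 ± 0.257, SD, n = 4), and in W329G it was 1.07, 1.03, 0.813 and 0.8004. On the log2 scale the responses were 2.46 ± 0.15 in WT (adjusted p = 4.78e-07) and -0.12 ± 0.14 in W329G (adjusted p = 0.773), and the difference was -2.58 ± 0.20 (adjusted p = 2.22e-05).

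TP53INP2, the paralog of TP53INP1, moves from the nucleus to autophagosomes in starved cells. Its levels were 25.98, 19.9, 57.7 and 34.2 CPM in WT with DMSO and 23.7, 23.99, 61.6 and 39.3 with 5-FU. In W329G they were 24.5, 23.3, 34.8 and 33.4 with DMSO and 25.3, 18.2, 35.1 and 34.2 with 5-FU. The groups overlapped, replicate 3 was the highest library in each WT group, and neither response was called (0.10 ± 0.19 and -0.06 ± 0.19, adjusted p = 0.827 and 0.941).

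**Figure D3:**
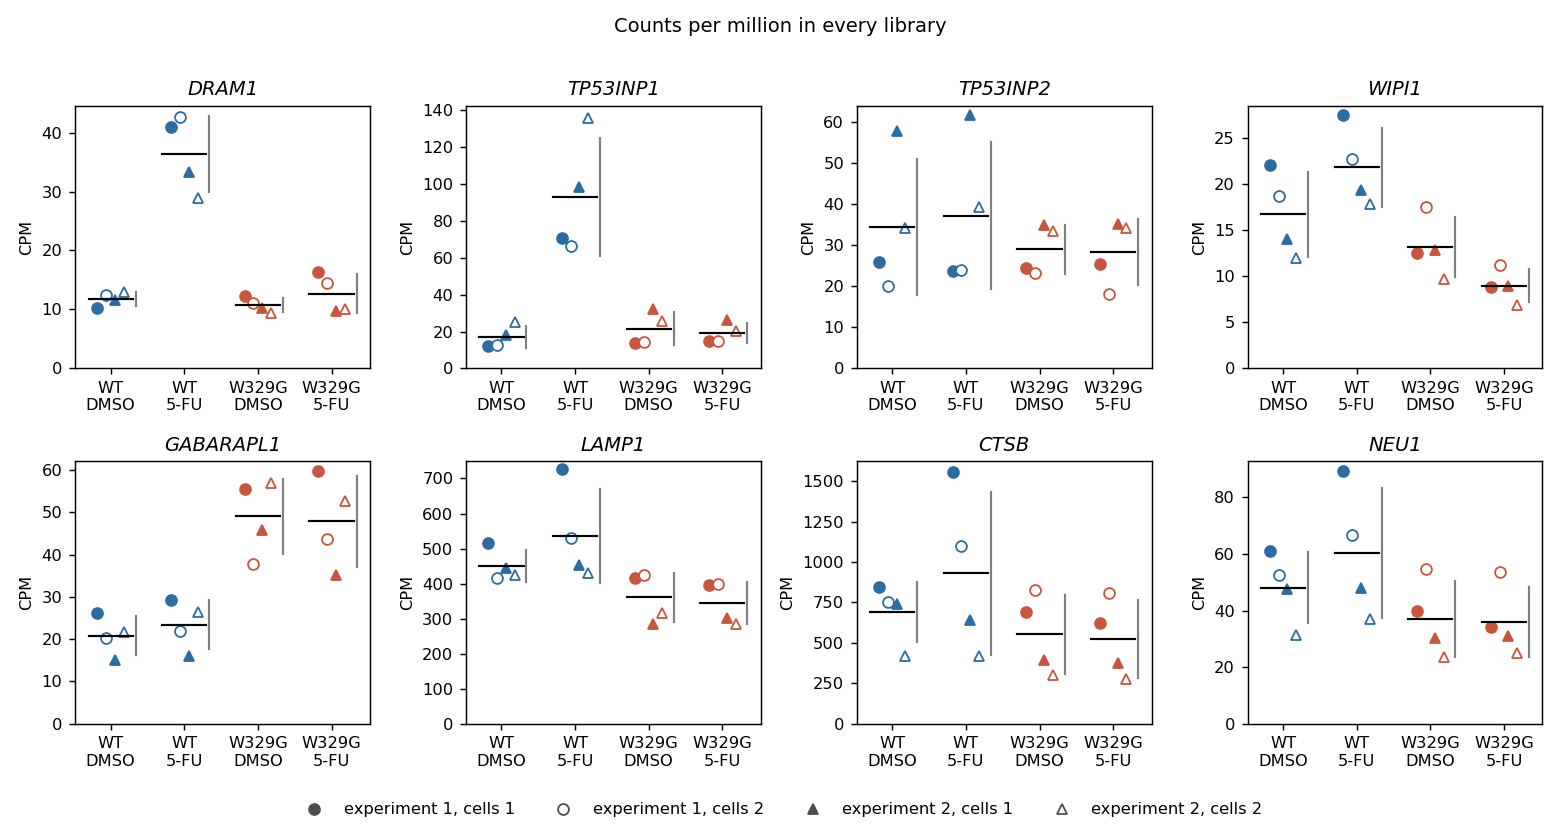
CPM of 8 of the genes in each library, by group. Circles are experiment 1 and triangles experiment 2, filled for cells 1 and open for cells 2, black bars are means and grey lines are 1 SD to either side (n = 4). The WT libraries with 5-FU stand above all others for DRAM1 and TP53INP1, and all 8 W329G libraries stand above all 8 WT libraries for GABARAPL1.

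The ULK complex, with the kinases ULK1 and ULK2 and the scaffold proteins ATG13 and ATG101, starts autophagosome formation. None of its 4 genes was called in any of the 5 comparisons, and their log2 responses ran from 0.02 to 0.30 in WT and from -0.26 to 0.49 in W329G. ATG13 had the lowest p of the group. It was at 62.7, 65.3, 64.3 and 57.4 CPM in WT with DMSO, 65.4, 66.6, 64.2 and 57.99 in WT with 5-FU, 79.5, 71.3, 68.6 and 57.7 in W329G with DMSO and 63.2, 50.7, 54.9 and 62.6 in W329G with 5-FU. The levels in W329G were lower with 5-FU in 3 of 4 pairs and the groups overlapped. The W329G response was -0.26 ± 0.11 (edgeR adjusted p = 0.316). ATG13 overlaps HARBI1 on the opposite strand, which had 9.8% of its reads in experiment 1.

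Of the class III PI3-kinase complex, BECN1 is the core subunit and ATG14 and UVRAG are the alternative subunits that direct it to early autophagy membranes or to endosomes. No gene of the 3 was called without the pairs. BECN1 was at 28.6, 44.4, 60.5 and 49.5 CPM in WT with DMSO and 27.7, 39.6, 53.9 and 40.7 with 5-FU. The W329G values were 35.7, 47.8, 59.98 and 57.7 with DMSO and 26.6, 34.9, 50.01 and 41.6 with 5-FU. It was lower with 5-FU in all 8 pairs, and the groups overlapped. The W329G response was -0.40 ± 0.17 (adjusted p = 0.305), and with a term for the pairs it was -0.40 ± 0.08 (adjusted p = 0.00913). The WT response was -0.17 ± 0.17 and the difference -0.23 ± 0.23 (adjusted p = 0.931), so the 2 responses were not shown to differ. BECN1 overlaps PSME3 on the opposite strand, which had 458.5% of its reads, and the sources do not say whether counting used strand.

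Among the lipid supply genes, WIPI1 differed between the genotypes in its response to 5-FU. WIPI1 binds the phosphoinositide made by the class III complex and marks sites of autophagosome formation (ENSG00000070540, chromosome 17, 68420948 to 68457513, minus strand). It was at 22.1, 18.7, 14.02 and 11.98 CPM in WT with DMSO and 27.4, 22.7, 19.4 and 17.8 with 5-FU. In W329G the level was 12.5, 17.5, 12.8 and 9.75 with DMSO and 8.86, 11.2, 8.95 and 6.86 with 5-FU. Every pair was higher with 5-FU in WT (ratios 1.24, 1.21, 1.38 and 1.49) and lower in W329G (0.708, 0.638, 0.697 and 0.703), and with 5-FU the 4 W329G libraries lay below all 4 WT libraries. The responses taken singly were not called (0.40 ± 0.16 in WT and -0.55 ± 0.16 in W329G, adjusted p = 0.130 and 0.125). With a term for the pairs both were, at 0.41 ± 0.09 (adjusted p = 0.00640) and -0.54 ± 0.10 (adjusted p = 0.00434). The difference was -0.95 ± 0.22 (adjusted p = 0.0480), or -0.95 ± 0.13 with the pairs (adjusted p = 9.69e-04). Leaving out any 1 of the 8 pairs lost the call of the difference without the pair term, with adjusted p from 0.0713 to 0.144, with the log2 value between -1.003 and -0.90. Each experiment alone gave a like value, -0.89 and -1.05, that was not called. ARSG on the opposite strand overlaps WIPI1 and had 14.5% of its reads.

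ATG2B, which with ATG2A transfers lipid into the growing membrane, was at 14.9, 16.6, 23.6 and 16.8 CPM in W329G with DMSO and 10.7, 12.1, 13.5 and 10.9 with 5-FU. In WT it was at 11.8, 10.998, 16.2 and 15.2 with DMSO and 10.5, 12.1, 15.1 and 15.5 with 5-FU. The W329G libraries were lower with 5-FU in all 4 pairs and their groups did not overlap, while the WT groups did. The W329G response was -0.59 ± 0.14 (adjusted p = 0.0632), and -0.59 ± 0.10 with the pairs (adjusted p = 0.00367). The difference from WT was -0.57 ± 0.20 (adjusted p = 0.263), and with the pairs it was called (adjusted p = 0.0337). GSKIP overlaps ATG2B on the opposite strand with 154.1% of its reads. ATG9A, the scramblase of the seed vesicles, ATG2A and WIPI2 were not called in either response.

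The 6 conjugation genes carry ATG12 to ATG5 and ATG8-family proteins to lipid. With edgeR as fitted here and without the pairs, none passed the threshold in the 5 comparisons. In W329G with the pairs, ATG10, the enzyme that attaches ATG12 to ATG5, was lower at -0.45 ± 0.13 (adjusted p = 0.0355). Its value rests on a gene whose opposite strand carries RPS23, with 8186.8% of the reads of ATG10. ATG7, the activating enzyme of both conjugations, had the lowest p of the group. It was at 31.9, 34.3, 19.5 and 24.7 CPM in WT with DMSO, 27.8, 31.4, 18.9 and 23.3 in WT with 5-FU, 23.7, 23.3, 19.2 and 16.3 in W329G with DMSO and 18.4, 15.9, 15.6 and 17.02 in W329G with 5-FU. With 5-FU, every W329G library lay below every WT library. The log2 difference of W329G from WT with 5-FU was -0.52 ± 0.15 (adjusted p = 0.0504, just outside the threshold). It was called in 7 of 13 alternatives, with adjusted p from 0.00769 to 0.0498, among them DESeq2 (0.0179), no filter on low counts (0.0316), single libraries (0.0107) and leaving out WT line 1 (0.0174). In the other 6 it was not, with adjusted p from 0.0545 to 0.548, among them the exchanged line numbers (0.131) and leaving out W329G line 1 (0.304) or line 2 (0.330). ATG16L1, which directs the lipid attachment to the membrane, went the other way and was higher in W329G with 5-FU (0.48 ± 0.21, adjusted p = 0.168). It was called higher when single libraries were fitted, with or without a block for the replicate number. VGLL4 overlaps ATG7 on the opposite strand with 101.4% of its reads.

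The 4 ATG4 proteases prime ATG8-family proteins and later release them from membranes. None was called without the pairs. ATG4C was at 22.01, 16.1, 12.9 and 25.8 CPM in WT with DMSO and 18.2, 10.9, 12.6 and 17.8 with 5-FU. The edited cells had 18.9, 14.5, 15.6 and 19.9 with DMSO and 16.2, 15.2, 14.3 and 16.1 with 5-FU. It was lower with 5-FU in all 4 WT pairs and in 3 of 4 W329G pairs, and the groups overlapped. The WT response was -0.37 ± 0.21 (adjusted p = 0.346), or -0.35 ± 0.11 with the pairs (adjusted p = 0.0328). ATG4B had a ratio above 1 in all 8 pairs, 1.13, 1.40, 1.02 and 1.27 in WT and 1.43, 1.19, 1.21 and 1.24 in W329G. With the pairs its response was called in W329G (0.34 ± 0.09, adjusted p = 0.0355) and not in WT (0.26 ± 0.09, adjusted p = 0.0602), and the difference between them was 0.08 ± 0.13 (adjusted p = 0.816). THAP4 overlaps ATG4B on the opposite strand with 104.8% of its reads.

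GABARAPL1 is one of the GABARAP branch of the ATG8 family (ENSG00000139112, chromosome 12, 10212458 to 10223130, plus strand). With either treatment it was called between the genotypes with the line numbers as labelled, and not with them exchanged. Its level was 26.2, 20.3, 15.2 and 21.8 CPM in WT with DMSO and 29.3, 21.8, 16.02 and 26.5 with 5-FU. In W329G it was 55.4, 37.9, 45.9 and 56.998 with DMSO and 59.8, 43.6, 35.2 and 52.6 with 5-FU. All 8 W329G libraries lay above all 8 WT libraries. On sums per line the log2 difference was 1.32 ± 0.13 with DMSO (adjusted p = 0.00674) and 1.09 ± 0.13 with 5-FU (adjusted p = 0.00142). With the line numbers exchanged the differences were 1.28 ± 0.29 and 1.06 ± 0.29, and neither was called (adjusted p = 0.538 and 0.136). Without either W329G line the DMSO difference was 1.26 or 1.37 and not called (adjusted p = 0.264 and 0.194). With DMSO it was 1.02 in experiment 1 and 1.48 in experiment 2. 5-FU gave no called change in WT (0.17 ± 0.21) or in W329G (-0.05 ± 0.21). The other members of the family, MAP1LC3B, GABARAP and GABARAPL2 among them, were not called in any comparison.

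**Figure D4:**
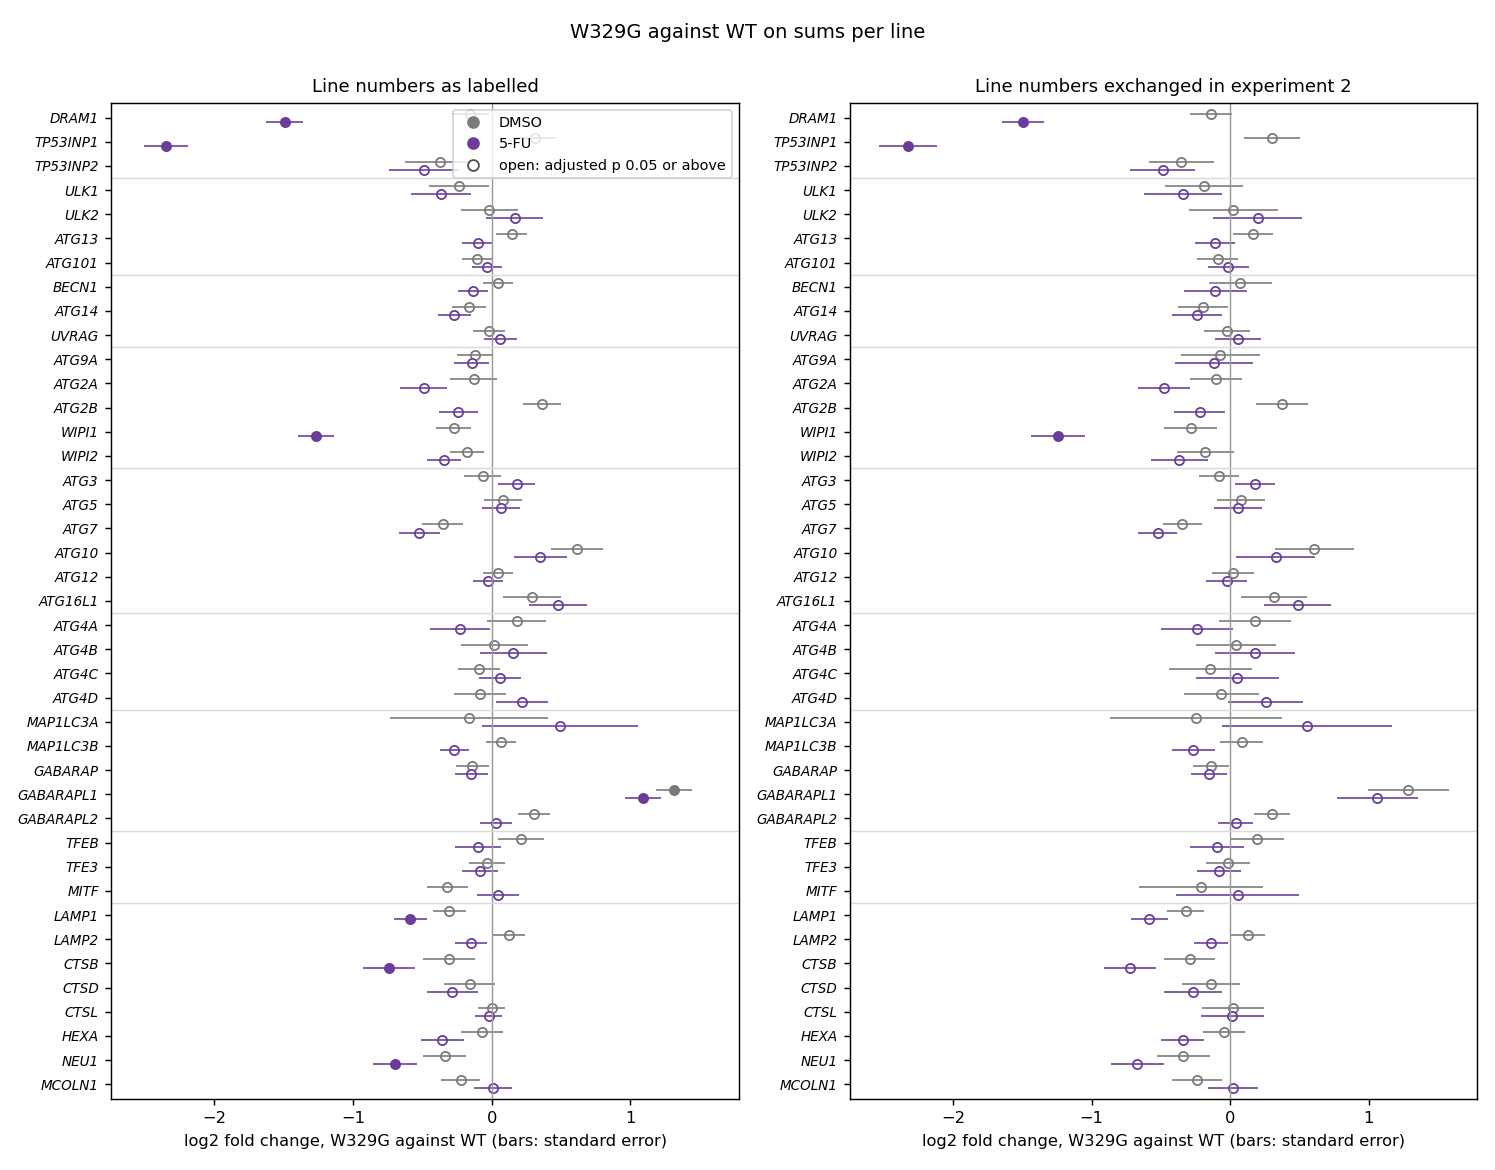
log2 fold change of W329G against WT for the 41 genes with DMSO (grey) and 5-FU (purple), with standard errors, on sums per line with the line numbers as labelled (left) and exchanged in experiment 2 (right). Filled points have an adjusted p under 0.05, 7 with 5-FU on the left and 3 on the right (DRAM1, TP53INP1 and WIPI1).

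With DMSO and the line numbers as labelled, GABARAPL1 was the 1 member called between the genotypes, higher in W329G. Of the 17484 genes tested, 0.452% were called higher and 0.972% lower. The median log2 difference was -0.07 for the 41 genes and -0.00 for all genes tested. With the numbers exchanged no member was called, beside 0% of genes higher and 0.0115% lower, and 4 members had an unadjusted p under 0.05, beside 7.78% of all genes. Only GABARAPL1 had W329G libraries with DMSO entirely above those of WT, and no member had them entirely below, against 1.59% and 1.8% of all genes. Lines were left out by their labelled numbers, here and with 5-FU. Leaving out WT line 2 gave 5 called members (TP53INP2, ATG10, GABARAPL1, CTSB and NEU1), 2 higher and 3 lower, where 5.02% of all genes were higher and 7.78% lower. Leaving out either W329G line gave none, where 0% of all genes were higher and 0.00557% lower.

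With 5-FU and the line numbers as labelled, 7 members were called: GABARAPL1 was higher in W329G, and DRAM1, TP53INP1, WIPI1, LAMP1, CTSB and NEU1 were lower. Of all genes, 7.25% were called higher and 7.09% lower. The median log2 difference of the 41 genes was -0.13, against -0.01 for all genes tested. With the numbers exchanged, 3 were called, all lower, where 0.687% of all genes were lower and 0.584% higher. The 3 were DRAM1 (-1.49 ± 0.13 as labelled, adjusted p = 5.12e-04, and 0.0162 exchanged), TP53INP1 (-2.35 ± 0.16, adjusted p = 2.25e-04 and 0.0112) and WIPI1 (-1.27 ± 0.13, adjusted p = 8.32e-04 and 0.0410). Without W329G line 2 only DRAM1 and TP53INP1 were called (0.613% of all genes lower and 0.384% higher), and without W329G line 1 these and WIPI1 and GABARAPL1 (0.997% lower and 0.836% higher). DESeq2 called 9, the 7 and also ATG2A and ATG7, both lower, where it called 9.47% of all genes lower and 9.67% higher. A block for the replicate number on single libraries, which joins WT and W329G libraries of the same replicate number, gave 12 members. They were those 9 and also WIPI2 and HEXA, both lower, and ATG16L1, which was higher, where 9.37% of all genes were lower and 10.9% higher. That fit counts the 2 libraries of a line as separate replicates. Over single libraries, 6 members had W329G entirely below WT with 5-FU (DRAM1, TP53INP1, ATG2A, WIPI1, ATG7 and LAMP1) and 2 entirely above (ATG3 and GABARAPL1), against 5.07% and 6.45% of all genes.

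The MiT factors switch on lysosomal and autophagy genes when they enter the nucleus, a step that transcript levels do not show. TFEB was at 9.59, 6.92, 4.64 and 4.89 CPM in WT with DMSO and 9.91, 8.88, 7.74 and 7.90 with 5-FU. W329G libraries had it at 9.66, 9.03, 5.22 and 4.15 with DMSO and 10.6, 9.28, 6.50 and 5.83 with 5-FU. TFEB was higher with 5-FU in all 8 pairs, and the groups overlapped, with experiment 1 at or above experiment 2 in each. The WT response was 0.47 ± 0.17 (adjusted p = 0.118), 0.46 ± 0.14 with the pairs (adjusted p = 0.0272), and was also called by DESeq2 (adjusted p = 0.0421). In W329G the response was 0.23 ± 0.17 (adjusted p = 0.620), and the difference, -0.23 ± 0.25, was not called (adjusted p = 0.932, and 0.599 with the pairs). TFE3 was at 112 ± 19.4 CPM in WT with DMSO and 132 ± 14.5 with 5-FU (SD, n = 4), and its response with the pairs was 0.24 ± 0.08 (adjusted p = 0.0473). MITF was not called in any comparison.

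In the lysosomal group, 7 of 8 genes had a positive log2 response to 5-FU in WT, beside 8425 of all 16436 genes tested. In W329G 6 of 8 had a negative one, beside 7675 of 16436. None of the 16 responses was called without the pairs. The group's median log2 response was 0.24 in WT and -0.06 in W329G, beside 0.01 and 0.02 for all genes tested. Between the genotypes with 5-FU, 3 of the 8 were called lower in W329G (LAMP1, CTSB and NEU1), where 7.09% of all genes were. The other 5 were not called, and with the line numbers exchanged none of the 8 was. The group's median was -0.32, against -0.01 for all genes tested. With DMSO none was called and the median was -0.19, against -0.00 for all genes tested. None of the 8 was called in the difference of the responses, so a larger gap with 5-FU than with DMSO was not shown.

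LAMP1 is a heavily glycosylated protein of the lysosomal membrane, and its promoter window held the most E-boxes among the 34 members with a window (ENSG00000185896, chromosome 13, 113297241 to 113323672, plus strand). It was at 515, 415, 444 and 425 CPM in WT with DMSO and 726, 531, 454 and 429.96 with 5-FU. In W329G the level was 416, 425, 284 and 317 with DMSO and 395, 398, 303 and 286 with 5-FU. With 5-FU all W329G libraries were below all WT libraries, and with DMSO the genotypes overlapped. The log2 difference with 5-FU was -0.59 ± 0.12 (adjusted p = 0.0130, and 0.0875 with the numbers exchanged), -0.66 in experiment 1 and -0.61 in experiment 2. The difference of the responses was -0.28 ± 0.18 (adjusted p = 0.745), so that the gap with 5-FU was not shown to exceed the one with DMSO, -0.30 ± 0.12 (adjusted p = 0.211).

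CTSB encodes cathepsin B, a cysteine protease of the lysosome (ENSG00000164733, chromosome 8, 11842524 to 11869448, minus strand). It was at 845, 751, 742 and 420.1 CPM in WT with DMSO and 1557, 1101, 643 and 420.2 with 5-FU. The edited cells had 688, 827, 395 and 302 with DMSO and 626, 811, 378 and 277 with 5-FU. The WT libraries of experiment 1 with 5-FU were the 2 highest of all 16, replicate 4 was the lowest of each WT group, and the genotypes overlapped. The WT response was 0.74 in experiment 1 and -0.12 in experiment 2, and 0.29 ± 0.23 over both (adjusted p = 0.519). The genotype difference with 5-FU was -0.74 ± 0.19 (adjusted p = 0.0317, and 0.117 with the numbers exchanged). With DMSO it was -0.31 ± 0.19 (adjusted p = 0.411). The difference of the responses, -0.37 ± 0.32, was not called (adjusted p = 0.892).

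NEU1 encodes the lysosomal sialidase, which works in a complex with cathepsin A (ENSG00000204386, chromosome 6, 31857659 to 31862906, minus strand). It was at 61.2, 52.6, 47.5 and 31.2 CPM in WT with DMSO and 89.4, 66.8, 47.9 and 37.1 with 5-FU. In W329G it was at 40.01, 54.7, 30.3 and 23.8 with DMSO and 34.3, 53.7, 30.9 and 24.9 with 5-FU. All 4 WT pairs were higher with 5-FU. The genotypes overlapped with either treatment, and with 5-FU they did so only through W329G replicate 2. The WT response was 0.28 ± 0.18 (adjusted p = 0.412), or 0.29 ± 0.10 with the pairs (adjusted p = 0.0453). The genotype difference with 5-FU was -0.70 ± 0.16 (adjusted p = 0.0206, and 0.149 with the numbers exchanged). With DMSO it was -0.34 ± 0.16 (adjusted p = 0.285). The difference of the responses, -0.31 ± 0.26, was not called (adjusted p = 0.876). CTSD, the aspartic protease cathepsin D, was called in WT with the pairs (0.42 ± 0.14, adjusted p = 0.0398). MCOLN1, the calcium channel of the lysosome, was called in W329G with the pairs (0.42 ± 0.12, adjusted p = 0.0401), and its ratios there were 1.28, 1.06, 1.41 and 1.71. LAMP2, CTSL and HEXA were not called in any of the 5 comparisons, nor in the responses with the pairs. HEXA was called lower in W329G with 5-FU when single libraries were fitted with a block for the replicate number (-0.35 ± 0.10, adjusted p = 0.0285).

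Another 192 genes of autophagy and the lysosome were described beside the 41. In WT, 11 of the 188 tested rose with 5-FU and 2 fell (3.56% and 5.21% of all genes), with a median log2 response of 0.14. The rise was largest for the enzymes FUCA1, the lysosomal fucosidase (0.98 ± 0.21, adjusted p = 0.00940), and SGSH, the heparan sulfatase (0.97 ± 0.19, adjusted p = 0.00384), among those at 5 CPM or more. The autophagy receptor CALCOCO1 (0.69 ± 0.15), the tethering factor EPG5 (0.52 ± 0.11), the proton pump accessory subunit ATP6AP2 (0.46 ± 0.11) and the amino acid transporter SLC36A1 (0.50 ± 0.13) rose too. HGSNAT, another enzyme of heparan sulfate breakdown (-0.74 ± 0.21), and the proton pump subunit ATP6V0A2 (-0.46 ± 0.14) fell. With the pairs 44 of the 188 were called, 38 higher and 6 lower, beside 11.6% and 13.1% of all genes.

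In W329G 1 of the 188 was called, HGSNAT, which fell (-1.20 ± 0.21, adjusted p = 0.0179). FUCA1 was the 1 whose difference between the responses was called, at -1.34 ± 0.30 (adjusted p = 0.0412). FUCA1 was at 22.7, 15.5, 16.2 and 18.1 CPM in WT with DMSO and 66.3, 30.4, 25.6 and 26.9 with 5-FU. W329G libraries had it at 14.1, 11.9, 9.10 and 8.24 with DMSO and 9.59, 10.4, 7.59 and 6.13 with 5-FU, so that with either treatment all W329G libraries lay below all WT libraries. With the pairs, 12 of the 188 were called in W329G, 3 higher and 9 lower, beside 5.13% and 5.79% of all genes. In the difference 14 were called, 0 higher and 14 lower, beside 3.57% and 2.54%.

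Between the genotypes with DMSO, 3 of 190 were called, all lower in W329G. GLMP, a glycosylated lysosomal membrane protein, was at 13.01, 8.54, 13.6 and 8.55 CPM in WT and 0.614, 0.640, 0.237 and 0.395 in W329G, a log2 difference of -4.56 ± 0.33 (adjusted p = 0.00163) that was also called with the numbers exchanged. TMEM79 overlaps GLMP on the opposite strand with 130.8% of its reads. The proton pump subunit ATP6V0C (-1.15 ± 0.21) and the hyaluronidase HYAL2 (-0.59 ± 0.11) were not called with the numbers exchanged. With 5-FU 32 of 190 were called, 28 lower and 4 higher, beside 7.09% and 7.25% of all genes, and the median log2 difference was -0.20. The lower ones of smallest p were GLMP (-4.42 ± 0.32), FUCA1 (-2.06 ± 0.18), the protease CTSF (-1.09 ± 0.19), ATP6AP2 (-0.54 ± 0.10), EI24, a membrane protein of the endoplasmic reticulum needed for autophagy (-0.55 ± 0.11), and SUMF1, which activates sulfatases (-1.02 ± 0.20). The 4 higher were the mitophagy receptor BNIP3 (0.66 ± 0.12), the prohibitin PHB2 (0.57 ± 0.11), the mTORC1 subunit RPTOR (0.45 ± 0.11) and WDR45B, of the WIPI family (0.41 ± 0.11). TFEC, with low counts, was also lower (-3.01 ± 0.65, adjusted p = 0.0167), at 0.0506 to 0.420 CPM in W329G with 5-FU. With the numbers exchanged only GLMP and FUCA1 were called among the 190.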

How the data were processed

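Per the labels' protocols, RNA was column-extracted, poly-A selected and made into TruSeq libraries. The authors deposited raw counts per gene, 1 file per library. The aligner, the counter and whether it used strand: not given in the sources used here. As build, hg19 is named in the submitters' processing notes, while 96.2% of 56898 genes in the experiment 1 file headers have GENCODE 29 (GRCh38) starts and ends, and coordinates are printed as those files give them. Experiments were joined by symbol (28692 genes, from 97.91% to 98.91% of counts). In experiment 2 the largest 26 values, with at least 7 digits, all end in 0: its largest counts appear rounded.

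edgeR 4.0.16 in R 4.3.3 gave the tests: quasi-likelihood F test, TMM, filterByExpr by group, Benjamini-Hochberg over all genes, threshold 0.05. The 5-FU responses and their difference were fitted on 16 libraries with an experiment term and no term for the pairs, which was an alternative. Genotype comparisons were fitted on 8 sums per line, with the line numbers as labelled. Leaving out a line left out its labelled sums. If the numbers are exchanged, these hold libraries of both lines, and the fit is then not one without a line. The SE is the absolute log2 fold change over the root of F. CPM values use TMM-scaled totals. Whether the experiments used separate cultures is not stated, and p-values reflect only how these libraries varied, which may be technical. Depth makes counting error small for the members except MAP1LC3A. Among the other pathway genes, counts were also low for TFEC and for GLMP in W329G (0.24 to 0.64 CPM with DMSO). Libraries of a group in 1 experiment were not copies (chi-square per degree of freedom 63.6 or more). DMSO and 5-FU libraries of the same line are pairs by their labels, and deviated together (WT r = 0.78 in experiment 1 and 0.685 in experiment 2, W329G r = 0.815 and 0.779).

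Described in full were the 3 p53-linked genes, members called in any comparison and, in groups with none called, the member of lowest p. ATG2B and the members called only with the pairs were added after their values were seen. Of the other pathway genes, the 6 called with the smallest p in each direction at a mean of 5 CPM or more are named. TFEC, below that level, was added after its values were seen. Members, lists and rules were chosen with earlier results of these data known. Alternatives were DESeq2 1.42.0 (size factors, test), no low-count filter, no mitochondrially encoded genes, the pairs as replicate block, no experiment term, each experiment alone, sums or single libraries, exchanged line numbers, and leaving out each pair or line. The fits were also run on simulated counts drawn without line, pair or experiment effects, so that run does not bear on those effects.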

Additional observations from a re-analysis of the deposited data

Results flagged for a closer look

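The responses to 5-FU differed between the genotypes for 3 of the 41 genes by a test of the difference itself (edgeR, W329G minus WT, log2): TP53INP1 by -2.58, DRAM1 by -1.37 and WIPI1 by -0.95. TP53INP1 was higher with 5-FU in 4 of 4 WT pairs and 2 of 4 W329G pairs, DRAM1 in 4 of 4 and 3 of 4, and WIPI1 in 4 of 4 and 0 of 4. In 52 groups of 4 libraries, for the 13 genes described in full, no library stood apart from the rest of its group by Dixon's criterion. Chance exceeds that criterion in about 1 of 20 groups. A group that splits by its 2 experiments is hard to flag in this way. The absence of flags therefore does not show that no library deviated.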

How the results depend on the processing

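The 13 called results of single members were recomputed under the alternatives that apply, 189 values in all. In 141 the direction and the call held, in 48 the direction held and the call was lost, and 0 were reversed. TP53INP1 and DRAM1 kept the 5-FU genotype call in every alternative, with adjusted p of at most 0.0336 and 0.038. In the difference of the responses both lost it without the experiment term (adjusted p = 0.0522 and 0.0557) and in each experiment alone, and WIPI1 lost it in 14 of 17 alternatives, among them DESeq2 size factors (0.0514), no low-count filter (0.0628) and sums per line (0.0507).

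The number of called members moved as follows, and causes were not tested. In the WT response it was 2, 8 with the replicate block and 0 in experiment 2 alone. In the W329G response it was 0, 2 by the DESeq2 test and 6 with the replicate block. In the difference it was 3, and 0 without the experiment term, in experiment 1 alone and in experiment 2 alone. Between genotypes with DMSO it was 1, and 0 in experiment 1 alone, in experiment 2 alone and with exchanged line numbers. With 5-FU it was 7, 12 with a replicate block on single libraries, 3 in experiment 1 alone, 2 in experiment 2 alone and 3 with exchanged numbers. Leaving out 1 pair or line gave 2 to 2 in the WT response, 0 to 0 in W329G, 2 to 2 in the difference, 0 to 5 with DMSO and 2 to 10 with 5-FU.

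The labels do not say that WT and W329G lines of the same number belong together. Their deviations correlated in experiment 2 (r = 0.468 with DMSO and 0.21 with 5-FU) and not in experiment 1 (-0.0707 and -0.0165). The numbers were therefore not taken as pairs of WT and W329G in the main fits. The replicate block on single libraries, which does take them so, gave 1 member with DMSO, as without it, and 12 with 5-FU. Over the alternatives the genes called ranged from 0 to 4066 in the WT response (1442 in the text's fit), 0 to 1794 in W329G (129), 0 to 1005 in the difference (198), 0 to 2305 with DMSO (249) and 30 to 3346 with 5-FU (2506). The other pathway genes called ranged from 0 to 44 (13), 0 to 12 (1), 0 to 14 (1), 0 to 34 (3) and 2 to 50 (32), in the same order. Depth limits MAP1LC3A, with 0 to 3 reads per library in experiment 2. There were 2 lines a genotype.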
